A study of Mus musculus with 27 samples.

Results

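The 8 genes Lyve1, Cd163, Folr2, Mrc1, Timd4, F13a1, Cbr2 and Vsig4, which are used to mark tissue-resident macrophages, were followed through muscle injury and repair. They were found by gene name in the deposited tables, as 8 of 55852 entries in the table of injured muscle and 8 of 55677 entries in the table that holds the uninjured control. Expression was given as TPM, a relative abundance in which reads are divided by gene length and every library is scaled to the same total, so that levels can be set side by side between genes. Since TPM keeps no read number, the depth of each library is unknown.

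Resident macrophages lie between the muscle fibres, take up debris and dying cells, and persist partly by their own division rather than by supply from the blood. After injury monocytes enter from the blood and become macrophages, and these can take up part of the same gene programme. In bulk tissue a lower marker level from fewer cells of a type and one from less RNA per cell cannot be told apart.

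The study asked how gasdermin E, whose cut form opens pores in the plasma membrane, acts in muscle repair. WT mice (C57BL/6J in the methods) and mice labelled Gsdme KO, described in the study as a global knockout, were injected with cardiotoxin (CTX), a venom peptide that lyses muscle fibres, and injured muscle was taken 1, 4, 7 and 14 days later (called D1, D4, D7, D14). The 24 injured libraries form 8 groups of 3 libraries, each from a separate animal as far as the deposited design states, and 3 further libraries are from WT muscle labelled as control, so that 27 libraries were used in all. The methods describe the control as the uninjured muscle of the other leg and name the gastrocnemius, whereas the deposited design names thigh muscle and an unloaded control. The genotype field of the KO libraries reads Gsdme knockdown while their titles read KO. No mouse age was given for these libraries. The limma p-values below rest on a spread between libraries pooled over all groups of a table, with 3 libraries a group. The exceptions are the fits stated to use the compared groups alone.

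The targeted gene was lower but not absent in the KO libraries. Gsdme was at 2.76 to 4.85 TPM in WT and 1.28 to 2.17 TPM in KO on D1, and at 1.46 to 2.26 TPM in WT and 1.27 to 1.96 TPM in KO on D14, where the genotypes overlapped. Averaged over days the difference of KO and WT was -0.55 on the log2(TPM + 1) scale (SE 0.09, limma adjusted p = 0.0664), and TPM of a whole gene does not show which part of it is deleted. Among the injured libraries, 12329 to 14704 genes reached 1 TPM. The second KO D4 library stood apart, with the lowest summed level of 12 genes common to all macrophages on that day (707 TPM, against 3910 to 8087 TPM in WT), and the third WT D1 library was low in the same genes (1130 TPM, against 3002 and 4723 TPM in the others of its group). Both are named below wherever they move a call.

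The members differed widely in level. In the injured libraries Folr2, the folate receptor of macrophages, reached 174 TPM and Cbr2, a carbonyl reductase, reached 109.56 TPM. F13a1, the A subunit of coagulation factor XIII, and Mrc1, the mannose receptor CD206, reached 94.75 and 67.03 TPM. Cd163, the scavenger receptor for haptoglobin and haemoglobin, and Lyve1, a hyaluronan receptor, reached 21.94 and 18.99 TPM. Timd4, a receptor for phosphatidylserine on dying cells, did not exceed 2.05 TPM, and Vsig4, a complement receptor, did not exceed 1.06 TPM. By the annotation of GRCm38, the assembly of mm10, all 8 are protein-coding genes. Lyve1 lies on chromosome 7 from 110850607 to 110863239, Folr2 on chromosome 7 from 101839988 to 101857194, F13a1 on chromosome 13 from 36867178 to 37050244 and Cbr2 on chromosome 11 from 120729489 to 120732114, all on the minus strand. Mrc1 lies on chromosome 2 from 14229392 to 14332057, Cd163 on chromosome 6 from 124304656 to 124330527 and Timd4 on chromosome 11 from 46810800 to 46844332, on the plus strand, and Vsig4 on chromosome X from 96247203 to 96293438, on the minus strand.

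Genes were tested where at least 3 libraries of a table reached 1 TPM. Vsig4 missed this limit in both tables, so that 7 of the 8 members were tested in each. By its defining genes the tissue held macrophages throughout, as each of the 12 pan-macrophage genes was above 0 in all libraries of both tables.

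**Figure D1:**
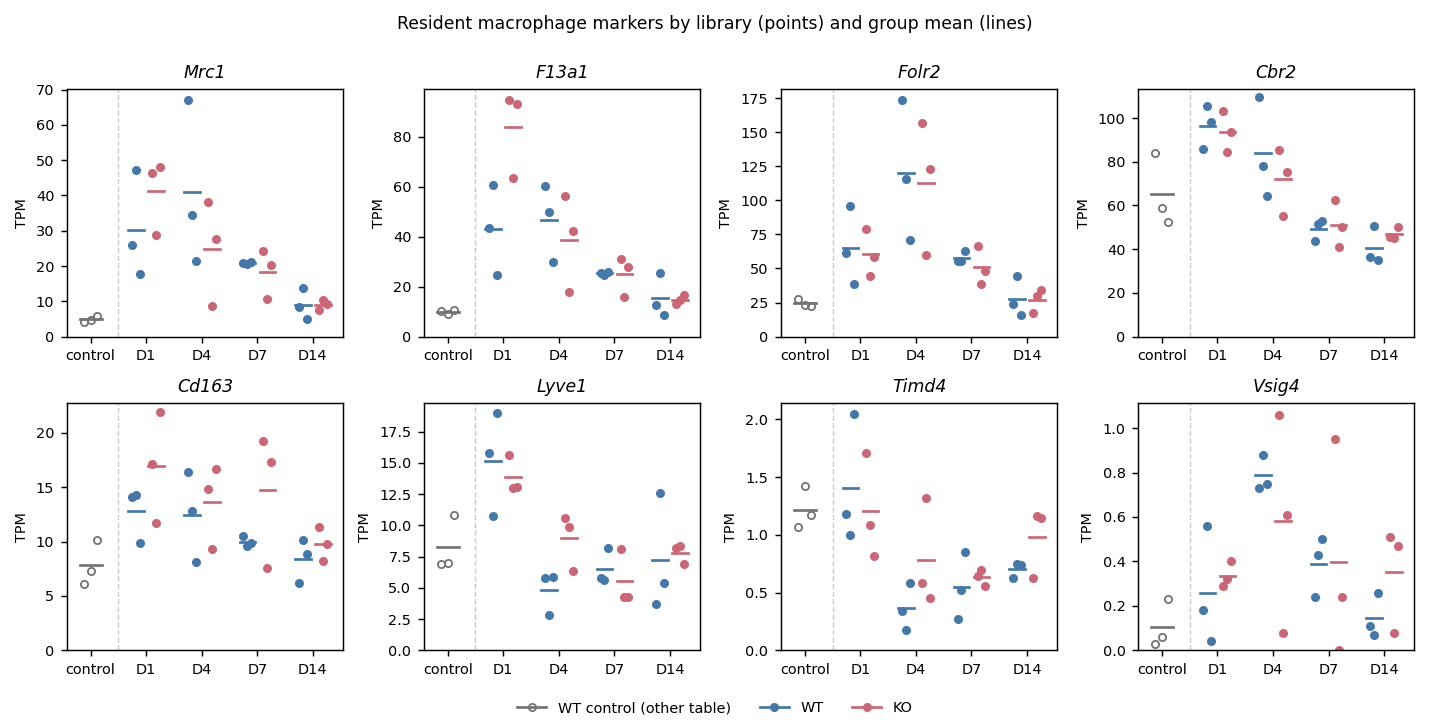
TPM of the 8 markers (vertical axes, from 0) in uninjured WT muscle and in WT and KO muscle on D1, D4, D7 and D14. Points are libraries, lines are means of 3 libraries, and the control was quantified in another table. Among the 4 days the D14 means of Mrc1, F13a1, Folr2 and Cbr2 were the lowest in both genotypes, whereas the lowest injured WT mean of Lyve1 and Timd4 was on D4.

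The first comparison was WT muscle on D1 against WT control muscle, within the table that holds both. Mrc1 was at 4.21, 4.56 and 5.75 TPM in control muscle and at 25.88, 47.18 and 17.71 TPM on D1. F13a1 was at 10.22, 9.13 and 10.5 TPM in control muscle and at 43.75, 61.16 and 24.56 TPM on D1. Both were higher in every D1 library than in any control library, by 2.32 (SE 0.33, limma adjusted p = 0.00181) for Mrc1 and 1.92 (SE 0.30, adjusted p = 0.00233) for F13a1 on the log2(TPM + 1) scale.

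Folr2 and Lyve1 rose less. Folr2 went from 27.82, 23.35 and 22.23 TPM in control muscle to 61.32, 95.88 and 38.45 TPM on D1 (log2 difference 1.29, SE 0.30, adjusted p = 0.00773). Lyve1 went from 6.88, 7.03 and 10.82 TPM to 18.12, 13.1 and 22.17 TPM (1.02, SE 0.25, adjusted p = 0.00987). In neither gene did the groups overlap.

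Cbr2 was already abundant in control muscle, at 83.94, 58.93 and 52.58 TPM, and was at 85.76, 105.65 and 98.42 TPM on D1. Its difference of 0.58 (SE 0.20) passed the test at an adjusted p of 0.0356, and turned to -0.20 when libraries were rescaled by the median of gene ratios. Its call was also lost without the first or the second WT D1 library (adjusted p = 0.0517 and 0.0776) and without the second or the third control library (adjusted p = 0.112 and 0.144). Cd163 (0.57, SE 0.23, adjusted p = 0.0578) and Timd4 (0.10, SE 0.22, adjusted p = 0.713) did not pass, and both turned negative under that scaling. Cd163 passed without the third WT D1 library (adjusted p = 0.0204) or the third control library (adjusted p = 0.0447). Timd4 was at 1.07, 1.42 and 1.17 TPM in control muscle and 1.18, 1.0 and 2.06 TPM on D1.

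In all, 5 of the 7 tested members rose, in a comparison in which 61.1% of the 13041 genes tested passed (7229 higher and 736 lower). The median log2 difference was 1.02 for the members and 0.66 for all genes. Scaled by the median of ratios, the all-gene median was 0.00, 2753 genes were higher and 2794 lower, and Mrc1 and F13a1 were the 2 members that still passed. Markers of macrophages in general, of recruited monocytes and of neutrophils moved much further. All 12 pan-macrophage genes rose (median 3.15, summed level 252 to 332 TPM in control muscle and 1135 to 4742 TPM on D1), and so did the 11 tested genes of recruited monocytes (median 3.20) and the 7 tested genes of neutrophils (median 3.02). The part of these cells in the members' rise was not tested. The methods describe 2 sequencing batches and the labels give none, so that injury and batch cannot be told apart here if the D1 libraries were sequenced with the other injured muscle.

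Over the days of repair most members followed 1 of 2 courses. Mrc1, F13a1, Folr2 and Cbr2 had their highest means on D1 or D4 and their lowest on D14 in both genotypes. Lyve1 and Timd4 had their highest WT mean on D1 and their lowest on D4, the day of the highest WT means of Folr2 and of the pan-macrophage genes. In KO, Lyve1 and Timd4 also had their highest mean on D1, but their lowest on D7 (5.55 and 0.63 TPM, against 8.96 and 0.78 TPM on D4). Cd163 had its highest mean on D1 and its lowest on D14 in both genotypes, within a narrower range (16.9 to 9.78 TPM in KO and 12.8 to 8.41 TPM in WT). Vsig4 had its highest mean on D4, at 0.79 TPM in WT and 0.58 TPM in KO.

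Lyve1 in WT was at 15.82, 10.76 and 18.99 TPM on D1, at 5.77, 2.79 and 5.85 TPM on D4, at 5.76, 5.65 and 8.17 TPM on D7, and at 3.7, 12.61 and 5.4 TPM on D14. Every D4 library was below every D1 library, and the change was -1.50 (SE 0.33, adjusted p = 0.00347). Timd4 in WT went from 1.18, 1.0 and 2.05 TPM on D1 to 0.34, 0.18 and 0.58 TPM on D4, again without overlap (-0.80, SE 0.22, adjusted p = 0.0126). These were the 2 of 7 members that passed between D1 and D4 in WT, where 19.8% of all genes did, and both fell. Of the 3120 genes that passed there, 2292 rose and 828 fell, against 1863 and 2013 with median-of-ratios scaling, under which both members still passed. The median gene moved by 0.17 at this step, by -0.24 from D4 to D7 and by -0.45 from D7 to D14 in WT, and by -0.15 from D1 to D4 in KO, so that the members' changes are to be read against these shifts. The call of Timd4 was lost without the third WT D1 library (adjusted p = 0.0840), without the second WT D4 library (adjusted p = 0.0592) and when the 6 libraries were fitted alone (adjusted p = 0.0812).

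Folr2 in WT took the other course. It was at 61.07, 95.8 and 38.35 TPM on D1, at 173.89, 116.02 and 70.73 TPM on D4, at 55.21, 55.44 and 62.75 TPM on D7, and at 23.56, 44.32 and 15.71 TPM on D14. Its D4 level was 0.88 above D1 (SE 0.42, adjusted p = 0.153) with overlapping libraries, so that the rise did not pass the test. Other genes of the resident macrophage programme did pass: of 27 tested genes of a list of 30, 11 rose from D1 to D4 in WT and 0 fell, among them Fcna, Gas6, Igfbp4, Selenop and C4b, as did the pan-macrophage genes Csf1r, C1qa, C1qb and C1qc.

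From D4 to D7 in WT, Cbr2 went from 109.56, 78.17 and 64.3 TPM to 43.52, 51.61 and 52.99 TPM. This fall of 0.73 (log2 difference -0.73, SE 0.20, adjusted p = 0.0280) was the 1 that passed of 7, where 12.3% of all genes did (478 higher and 1463 lower, against 973 and 858 with median-of-ratios scaling). It did not pass under the other scalings (adjusted p = 0.0672 and 0.0798), nor without the first WT D4 library (adjusted p = 0.168) or without any 1 of the WT D7 libraries (adjusted p from 0.0713 to 0.0835). From D7 to D14 in WT, Folr2 fell (log2 difference -1.15, SE 0.42, adjusted p = 0.0444), again 1 of 7, where 31.8% of all genes passed (145 higher and 4855 lower, against 813 and 1407 with median-of-ratios scaling). It did not pass under that scaling (adjusted p = 0.197) or quantile normalization (adjusted p = 0.156). Mrc1 went from 20.87, 20.45 and 21.03 TPM to 8.42, 13.7 and 4.99 TPM without overlap and just missed the threshold (-1.21, SE 0.48, adjusted p = 0.0581). The call of Folr2 was lost when any 1 of 5 libraries was left out, with adjusted p up to 0.204, and without the second WT D14 library 3 members passed, Folr2, Mrc1 and F13a1. Of the pan-macrophage genes, 11 of 12 fell between these days (median -2.15).

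In KO muscle F13a1 was the 1 of 7 members that passed between D1 and D4, where 19.4% of all genes did. It went from 94.75, 63.51 and 93.05 TPM to 56.19, 17.75 and 42.23 TPM, all below the D1 libraries (-1.22, SE 0.41, adjusted p = 0.0439). The call was lost without the first or the third KO D1 library (adjusted p = 0.124 and 0.145) and without the third KO D4 library (adjusted p = 0.0600). The 17.75 TPM belongs to the library that stood apart, and without it the change was -0.75 (adjusted p = 0.227). Lyve1 in KO went from 15.62, 13.01 and 13.05 TPM to 10.62, 9.91 and 6.35 TPM, without overlap but short of the threshold (-0.60, SE 0.33, adjusted p = 0.193). From D4 to D7 limma called 0 of 7 members in KO and 0% of all genes, with 2 members at an unadjusted p under 0.05. Without the second KO D4 library Folr2 passed for this step (-1.46, adjusted p = 0.0436). From D7 to D14 it called 0 of 7 members and 0.56% of all genes, with 1 member at an unadjusted p under 0.05.

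Whether the steps differed between genotypes was tested directly. For the steps D1 to D4, D4 to D7 and D7 to D14, limma called 0 of 7 members and 0% of all genes, with 1, 1 and 0 members at an unadjusted p under 0.05, and the lowest adjusted p of a member was 0.204. The fall of Lyve1 and Timd4 in WT and that of F13a1 in KO were therefore not shown to belong to 1 genotype.

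**Figure D2:**
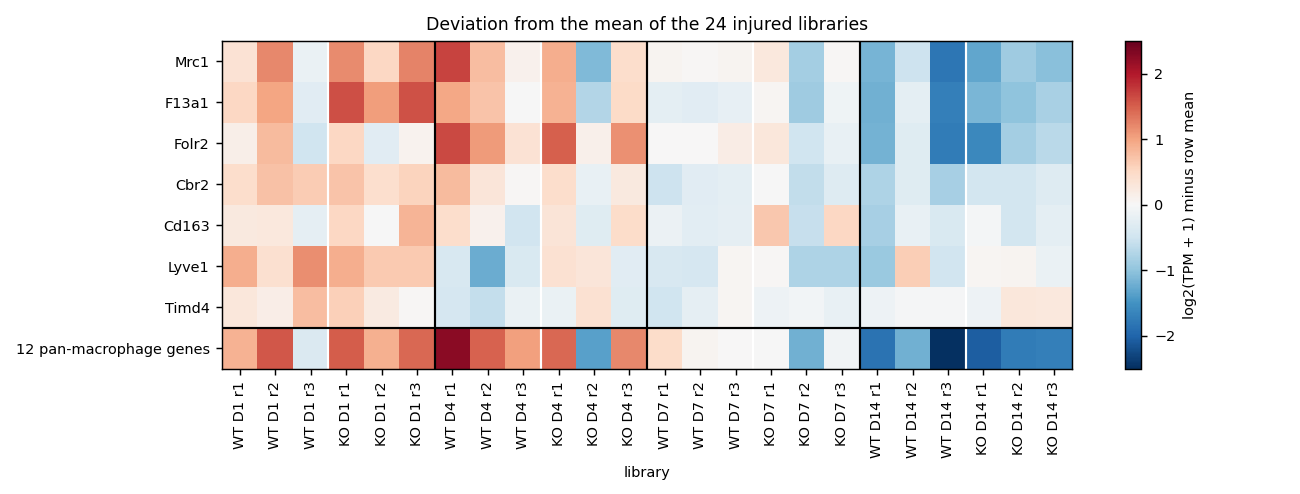
Each cell gives log2(TPM + 1) of a marker in a library minus the mean of that marker over the 24 injured libraries (red above, blue below). Rows are the 7 tested markers and the mean of 12 pan-macrophage genes, and columns are libraries in the order of days. The rows of Mrc1 and F13a1 look like the pan-macrophage row, with Pearson's r of 0.972 and 0.925 over the 24 libraries, while Lyve1 and Timd4 do not (0.179 and -0.204).

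The likeness between genes was computed from the same values that gave the 2 courses, so that it is no second observation of them. The following correlations are across the 24 injured libraries, which share days, genotype and the scaling to a fixed total, and are given as a description. With the mean of the 12 pan-macrophage genes, r was 0.972 for Mrc1, 0.925 for F13a1, 0.880 for Folr2, 0.836 for Cbr2 and 0.667 for Cd163, but 0.179 for Lyve1 and -0.204 for Timd4. Mrc1 and F13a1 followed each other at 0.951, and Lyve1 and Timd4 at 0.758. Once group means were taken away, these correlations were 0.959 and 0.456. Lyve1 and Folr2, which are often used together as markers of the same cells, were at 0.051.

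Over 13729 named genes with a mean of at least 1 TPM, the 3 genes most like each member were as follows. Mrc1 was followed by Serp1, Tram1 and Cd48 (0.983 to 0.984), F13a1 by Rab32, Ncf1 and Fxyd5 (0.966 to 0.972), and Folr2 by Cfb, P2rx7 and Ccl8 (0.953 to 0.965). Cbr2 was followed by Tomm6, Psmb1 and Serpina3n (0.943 to 0.947), and Cd163 by Ctla2b, Gm21370 and Lrrc8b (0.810 to 0.826). Timd4 was followed by Abhd6, Nrtn and Tango2 (0.808 to 0.890), and Lyve1 by Atoh8, Saa1 and Cltb (0.759 to 0.786). Among all of these genes, Ccl8 alone is on the macrophage lists used here, and Ncf1 is a phagocyte oxidase subunit.

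Lyve1 is also a marker of lymphatic endothelium, so genes of that tissue were read beside it. Prox1, a transcription factor of lymphatic endothelium, was at 0.34 to 0.42 TPM in WT on D1 and 1.06 to 1.59 TPM on D4. This was a rise (0.78, SE 0.17, limma adjusted p = 0.00359) at the step in which Lyve1 fell. Prox1 was the 1 of 8 tested lymphatic genes that passed there. Means on D1 and D4 were 0.35 and 0.97 TPM for Ackr4, 2.47 and 3.07 for Flt4, 2.67 and 3.86 for Reln, and 26.5 and 29.4 for Sox18. Those of Ccl21a (25.7 and 23.55 TPM), Mmrn1 (0.86 and 0.83 TPM) and Pdpn (83.6 and 45.5 TPM) were lower on D4. The 8 genes summed to 86.09 to 200.35 TPM in WT on D1 and 74.85 to 129.73 TPM on D4, and none was at 0 in all libraries. Once group means were taken away, the remaining variation of Lyve1 between libraries correlated with the mean of these genes at 0.599 and with the pan-macrophage mean at 0.008. The correlation with the lymphatic mean was not particular to Lyve1. It was 0.566 for Folr2, 0.546 for F13a1, 0.490 for Mrc1, 0.487 for Cbr2, 0.234 for Cd163 and 0.155 for Timd4. With the pan-macrophage mean these members were at 0.877, 0.943, 0.955, 0.722, 0.711 and -0.593 in the same order. A value near 0 with that mean was thus seen for Lyve1 alone. The part of lymphatic cells in the level of Lyve1 was not tested.

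The promoters of the members that moved with the pan-macrophage genes are shown because the levels of these genes moved together over the 24 libraries. RefSeq windows on GRCm38.p6, from 250 bases before to 50 bases after a start, were available for 7 members in 9 windows, all but Lyve1. They were searched on both strands for TGANTCA (AP-1, the site of Jun), CCNCACCC (Klf factors) and GAGGAAGT (PU.1, the macrophage factor encoded by Spi1), which do not overlap each other in these windows. Capitals mark the matches, and each line gives the window that holds one, or for Mrc1 the only window.
Mrc1, chr2:14229164-14229463, plus strand: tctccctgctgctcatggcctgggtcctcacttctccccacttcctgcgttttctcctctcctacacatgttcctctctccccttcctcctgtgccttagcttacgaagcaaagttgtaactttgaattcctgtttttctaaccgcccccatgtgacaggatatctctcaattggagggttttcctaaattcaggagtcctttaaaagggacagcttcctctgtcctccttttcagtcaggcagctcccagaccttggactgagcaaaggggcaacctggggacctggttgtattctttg
F13a1, chr13:37049164-37049463, minus strand: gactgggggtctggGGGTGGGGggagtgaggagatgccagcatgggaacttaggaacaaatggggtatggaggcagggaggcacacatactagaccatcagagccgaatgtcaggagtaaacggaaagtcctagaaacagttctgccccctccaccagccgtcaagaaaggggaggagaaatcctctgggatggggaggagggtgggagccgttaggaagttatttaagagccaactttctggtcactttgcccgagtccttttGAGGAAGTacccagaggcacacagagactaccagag
Folr2, chr7:101845282-101845581, minus strand: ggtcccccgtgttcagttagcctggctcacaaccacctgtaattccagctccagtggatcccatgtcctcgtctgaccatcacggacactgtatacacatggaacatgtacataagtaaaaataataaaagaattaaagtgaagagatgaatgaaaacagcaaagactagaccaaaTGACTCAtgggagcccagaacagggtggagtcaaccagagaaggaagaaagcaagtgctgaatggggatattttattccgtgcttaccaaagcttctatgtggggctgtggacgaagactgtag
Cbr2, chr11:120731972-120732271, minus strand: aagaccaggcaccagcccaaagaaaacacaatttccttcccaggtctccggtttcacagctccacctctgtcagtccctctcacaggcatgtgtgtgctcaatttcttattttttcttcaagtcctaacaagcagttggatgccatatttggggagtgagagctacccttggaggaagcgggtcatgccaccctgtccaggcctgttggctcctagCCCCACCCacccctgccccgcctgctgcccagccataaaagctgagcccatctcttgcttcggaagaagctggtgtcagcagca

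Positions are counted in bases from the start, negative before it. The F13a1 window held a Klf match at -236, on the other strand, and a PU.1 match at 15. The Folr2 window held an AP-1 match at -74, and the Cbr2 window a Klf match at -34. The windows shown for F13a1 and Folr2 belong to starts inside the annotated gene, and the other window of each held none of the 3. Nor did the windows of Mrc1, Cd163, Timd4 and Vsig4. Of all 32851 windows, 7.81% held the AP-1 letters, 16.6% the Klf letters and 3.2% the PU.1 letters. A match is a run of letters and not evidence of binding.

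The comparison of KO with WT on the same day addressed whether the markers depend on gasdermin E. On D1 limma called 0 of 7 members and 0.00636% of all genes (1 of 15718), on each of the later days it called 0 of 7 members and 0% of all genes, and averaged over the 4 days it called 0 of 7 members and 0.00636% of all genes. At an unadjusted p under 0.05 there were 1, 1, 0 and 0 members on the 4 days in order and 0 for the average, beside 845, 3568, 481, 324 and 556 of all genes. The F test for a genotype difference that changes with the day called 0 of 7 members and 0% of all genes, with 0 members at an unadjusted p under 0.05 (adjusted p from 0.527 to 0.986).

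F13a1 was higher in KO on D1. The KO libraries were at 94.75, 63.51 and 93.05 TPM and the WT libraries at 43.52, 60.82 and 24.52 TPM, so that they did not overlap. The log2 difference was 1.02 (SE 0.41, unadjusted p = 0.0225, adjusted p = 0.873), and the two-sided exact permutation p of 0.1 is the smallest that 3 against 3 allow. It was the 1 of 8 members without overlap on D1, against 6.71% of all genes tested.

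The neighbouring values on that day were not all those of macrophages. The 12 pan-macrophage genes summed to 3645 to 5288 TPM in KO and 1130 to 4723 TPM in WT, and the 8 neutrophil genes to 309.54 to 3681 TPM in KO and 66.16 to 676 TPM in WT. F13a1 is also carried by platelets. Of 8 platelet genes 5 were tested, and all 5 were at higher means of log2(TPM + 1) in KO (median difference 0.50, 0 called, 1 at an unadjusted p under 0.05). The 8 genes summed to 447 to 1017 TPM in KO and 155 to 622 TPM in WT, most of it Pf4, at 413.65 to 884.71 TPM in KO and 141.76 to 583.44 TPM in WT. Pf4 is also on the list of other resident macrophage genes used here, so that this sum does not set platelets apart from macrophages. Itga2b was at 2.07 to 2.94 TPM in KO and 1.9 to 2.94 TPM in WT, and Ppbp was at 27.79 to 123.67 TPM in KO and 6.01 to 33.34 TPM in WT. Gp9, not tested, was at 0 to 0.37 TPM in KO and 0.13 to 1.37 TPM in WT. Without the third WT D1 library the difference of F13a1 was 0.67. The part of other cells in it was not tested, and genotype and batch cannot be told apart on D1 if the WT libraries were sequenced with the controls.

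Lyve1 was higher in KO on D4. The KO libraries were at 10.62, 9.91 and 6.35 TPM and the WT libraries at 5.77, 2.79 and 5.85 TPM, again without overlap. The log2 difference was 0.80 (SE 0.33, unadjusted p = 0.0255, adjusted p = 0.212, exact permutation p = 0.1, the smallest possible). Without the second WT D4 library the difference was 0.52. Lyve1 was the 1 of 8 members without overlap on D4, against 14% of all genes tested. Lymphatic genes on that day overlapped between genotypes, with Prox1 at 0.48 to 1.11 TPM in KO and 1.06 to 1.59 TPM in WT and Mmrn1 at 1.14 to 3.35 TPM in KO and 0.15 to 1.35 TPM in WT.

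On D7 0 of 8 members were without overlap, against 16.5% of all genes tested, and on D14 0 of 8, against 8.42%. Cd163 on D7 was at 19.28, 7.57 and 17.29 TPM in KO and at 10.52, 9.56 and 9.85 TPM in WT, so that the KO libraries lay on both sides of WT (0.42, SE 0.31, adjusted p = 0.776). The 7.57 TPM belongs to the second KO D7 library, whose 12 pan-macrophage genes summed to 728 TPM, against 1833 and 1702 TPM in the others of its group. Without it the difference was 0.81, and without the first or the third KO D7 library it was 0.19 and 0.27, with adjusted p from 0.751 to 1.0 in these fits. With weights for library quality this difference was 0.75 (adjusted p = 0.00879). Over the 4 days the largest average difference among the members was that of Cd163, at 0.28 (exact permutation p within days = 0.0813, over 160000 assignments), and those of the other 7 lay between -0.11 and 0.18.

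**Figure D3:**
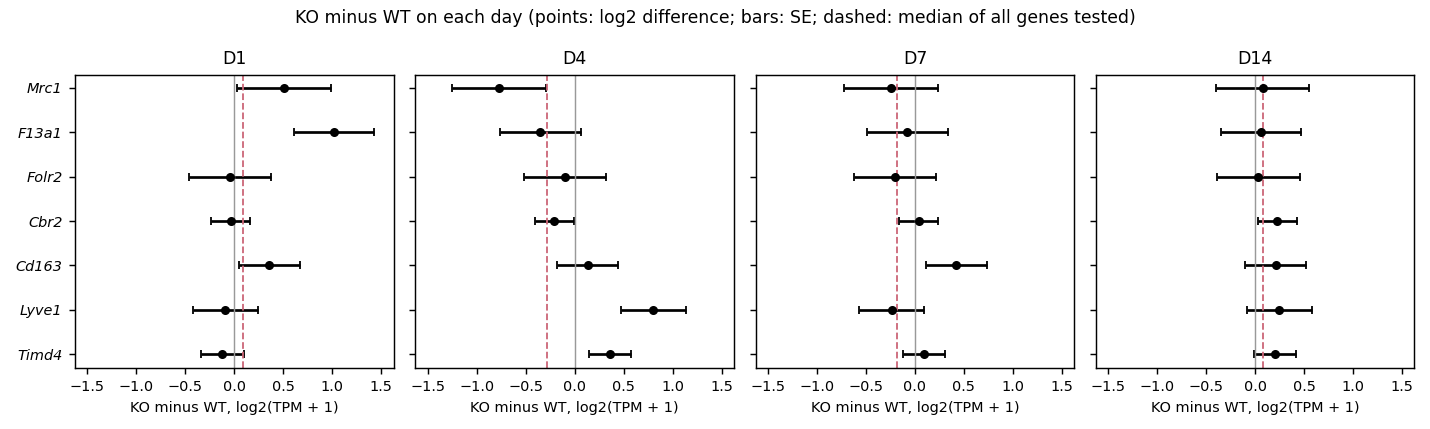
Difference of KO and WT in log2(TPM + 1) for the 7 tested markers on each day, with 3 libraries a group. Points are log2 differences, bars are SE, and the dashed line is the median of the 15718 genes tested. F13a1 on D1 (1.02) and Lyve1 on D4 (0.80) lie farthest to the right, and no marker passed the adjusted test.

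The median gene itself moved between genotypes, by 0.09, -0.28, -0.19 and 0.08 on the 4 days in order. The median of the members was -0.04, -0.10, -0.08 and 0.20. On D4 and D7 macrophage genes in general were at lower levels in KO without passing the test, with medians of -1.10 and -0.63 for the 12 pan-macrophage genes, and 1 KO library a day lay far below the others. The mean log2(TPM + 1) of these 12 genes was 7.37, 4.58 and 7.13 in KO and 8.21, 7.41 and 6.96 in WT on D4, and 5.92, 4.75 and 5.85 in KO and 6.39, 6.02 and 5.96 in WT on D7. The second KO library was the low one on both days, and this mean is what the following scale subtracts.

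To set the members against the macrophage signal of the same library, the mean log2(TPM + 1) of the 12 pan-macrophage genes was subtracted from that of each member. On this relative scale a value of 0 means a level equal to the mean macrophage gene, and a difference is a difference of ratios. The pan-macrophage mean was so much lower on D14 than on D4 that 99.1% of all genes in WT and 99.2% in KO had a higher mean on D14 than on D4 on this scale, so that a rise of a member between these days says nothing particular to it. Lyve1 in WT was at -2.65 ± 1.34, -5.04 ± 0.74, -3.23 ± 0.44 and -1.17 ± 0.62 (SD, n = 3) on the 4 days in order. Folr2 in WT was at -0.68 ± 0.34, -0.70 ± 0.14, -0.25 ± 0.31 and 0.66 ± 0.13, so that at D14 it was above the mean macrophage gene. Cbr2 in WT went from -1.15 ± 0.25 on D4 to 1.29 ± 0.45 on D14.

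F13a1 was higher in KO than in WT on this scale on 3 of the 4 days. On D1 the KO libraries were at -0.88, -0.81 and -0.81 and the WT libraries at -1.33, -1.55 and -0.91. On D4 they were at -1.54, -0.35 and -1.70 in KO and -2.27, -1.75 and -2.01 in WT, and on D7 at -0.92, -0.67 and -1.0 in KO and -1.67, -1.33 and -1.20 in WT. The groups did not overlap on any of these days, although the gap was narrow on D1 and on D4. On D14 they overlapped.

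Before the subtraction, F13a1 in KO minus WT was -0.35 on D4 and -0.08 on D7 in log2(TPM + 1), with overlapping libraries. On the relative scale the median difference over all genes was -0.50, 0.88, 0.43 and 0.05 on the 4 days in order. The differences of F13a1 on that scale were 0.43, 0.81, 0.54 and 0.03, so that on D4 it lay below the median gene. Its average was 0.45 (exact two-sided permutation within days, p = 0.0005, unadjusted, 1 of 8 members computed). Without the second KO D4 library the difference was 0.39 on D4 and 0.35 on average. Against Csf1r and Adgre1 alone the average was 0.42 (exact p = 0.000725), and the D4 libraries then overlapped. In a limma fit of the same relative values over all 15718 genes, the average difference of F13a1 had an unadjusted p of 0.0199 and an adjusted p of 0.741, and 0% of all genes and 0 of 7 members passed on any day or on average.

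The relative scale moves most genes at once, so the background differs by day. KO libraries were above all WT libraries on it in 0.515%, 8.89%, 30.1% and 0.948% of genes on the 4 days in order. Among the 8 members this held for 1 on D1 (F13a1), for 3 on D4 (Cd163, Folr2 and F13a1), for 4 on D7 (Cd163, Mrc1, F13a1 and Cbr2) and for 0 on D14. In the other direction Folr2 lay below all WT libraries in KO on D1, 1 of 8 members against 4.98% of all genes. On D1, D4 and D7 together, KO was above WT in 0.0191% of genes. That share is 3 of 15718 genes, F13a1, Fcgr3 and Gda, and this count over 3 days was chosen after the values were seen. Fcgr3 encodes an activating Fc receptor of myeloid cells and Gda a guanine deaminase.

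Every member had a positive average on this scale, and so had the median gene (0.22, against -0.07 before the subtraction). The subtraction adds the same amount to the average of every gene, so that this sign says nothing particular to the members. The average of Cd163 was the largest (0.57, exact permutation p = 0.0307, unadjusted, and adjusted p = 0.741 in the fit over all genes). The libraries of Cd163 did not overlap on D4 (1.29) or on D7 (1.04). On D7 the KO libraries were at -1.58, -1.65 and -1.66 and the WT libraries at -2.87, -2.62 and -2.52, so that the spread in TPM between the KO libraries was shared with their macrophage genes. Without the second KO D4 library the D4 difference was 0.64. The averages of the remaining members were 0.18 for Mrc1, 0.21 for Folr2, 0.29 for Cbr2, 0.30 for Vsig4, 0.42 for Timd4 and 0.47 for Lyve1, with exact permutation p from 0.110 to 0.344, beside a median of 0.22 over all genes. Without the second KO D4 library they were 0.11, 0.087, 0.11, 0.14, 0.15 and 0.23 in the same order, and that of Lyve1 was 0.31 without the second WT D1 library.

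**Figure D4:**
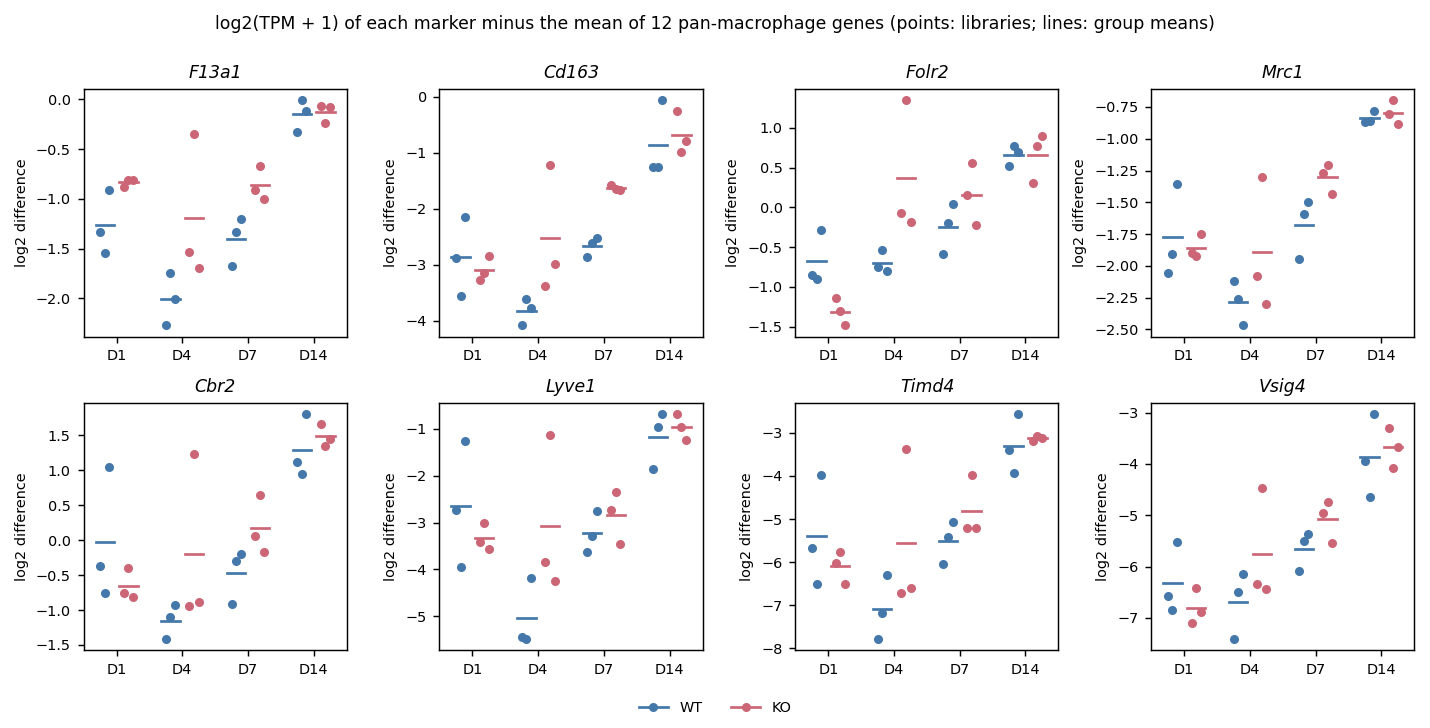
Level of each marker relative to the macrophage genes of the same library, as log2(TPM + 1) of the marker minus the mean of 12 pan-macrophage genes (vertical axes), by day. Points are libraries and lines are means of 3 libraries. F13a1 is higher in KO without overlap on D1, D4 and D7. The median difference of KO and WT over all genes on this scale was -0.50, 0.88 and 0.43 on these days.

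Genes around the members were read from lists. Of 27 tested genes of the wider resident macrophage programme and 14 tested growth factors, receptors and transcription factors, limma called 0 between KO and WT on any day or on average. At an unadjusted p under 0.05 there were 4, 6, 1 and 1 genes of the first list on the 4 days in order and 1 on average, and 0, 3, 1, 1 and 0 of the second. The lowest unadjusted p values of the first list belonged to Ccl24 and Tmem37 on D1, Hmox1 and Igfbp4 on D4 and Txnip and Igfbp4 on D7. Txnip, an inhibitor of thioredoxin, was at 326 to 372 TPM in KO and 235 to 258 TPM in WT on D7. On D14 its order was reversed, at 212 to 252 TPM in KO and 256 to 312 TPM in WT, again without overlap.

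The growth factor Csf1, which keeps macrophages alive through its receptor Csf1r, was at 26.7 to 93.21 TPM in WT and 45.01 to 85.08 TPM in KO on D1. From D1 to D4 it fell in KO (-1.86, SE 0.39, limma adjusted p = 0.00375), to 11.08 to 24.92 TPM. Its change in WT was -0.69 (limma adjusted p = 0.240), and the difference between these steps did not pass (-1.17, limma adjusted p = 0.212). Csf1r rose in WT from D1 to D4 (1.52, SE 0.50, adjusted p = 0.0392) and fell from D7 to D14 (-1.68, SE 0.50, adjusted p = 0.0210). In KO these changes were 0.12 and -1.28 (limma adjusted p = 0.884 and 0.193). Neither step differed between genotypes in the direct test (limma adjusted p = 0.225 and 0.841). Il18, the cytokine processed by the inflammasome, was at 4.85 to 12.6 TPM in WT and 1.27 to 7.25 TPM in KO on D4 (KO minus WT averaged over days -0.42, SE 0.23, adjusted p = 0.861). Jun, a subunit of AP-1, was at 29.91 to 38.06 TPM in KO and 48.76 to 50.63 TPM in WT on D7 without overlap (-0.52, SE 0.23, adjusted p = 0.776). Klf4 was at 9.04 to 18.54 TPM in WT on D1 and 24.56 to 29.4 TPM on D7, and its genotype difference averaged -0.02 (SE 0.14).

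Control and D14 muscle stand in different tables and were set side by side without a test. Folr2 was at 22.23 to 27.82 TPM in control muscle, 15.71 to 44.32 TPM in WT on D14 and 17.35 to 33.93 TPM in KO on D14. Lyve1 was at 6.88 to 10.82, 3.7 to 12.61 and 6.92 to 8.38 TPM, and Timd4 at 1.07 to 1.42, 0.63 to 0.75 and 0.63 to 1.16 TPM in the same order. Mrc1 was at 4.21 to 5.75 TPM in control muscle, 4.99 to 13.7 TPM in WT and 7.47 to 10.25 TPM in KO. Folr2 and Lyve1 on D14 overlapped the control range in both genotypes, while the 3 WT D14 values of Timd4 were all below it and the KO values of Mrc1 all above it. All 6 D14 values of Cbr2 lay below its control range (34.94 to 50.53 TPM in WT and 45.24 to 50.16 TPM in KO, against 52.58 to 83.94 TPM). F13a1 in KO, at 13.15 to 16.78 TPM, was above its control range of 9.13 to 10.5 TPM, and in WT, at 8.52 to 25.45 TPM, overlapped it. Cd163 overlapped its control range of 6.06 to 10.17 TPM in both genotypes. On that day 8 adipocyte genes summed to 320 to 1269 TPM in KO and 49.74 to 84.73 TPM in WT without any of them passing the test, and the part of this in any relative abundance was not tested.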

How the data were processed

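RNA-seq was from muscle of WT and Gsdme KO mice, and groups and replicate numbers were taken from sample titles. The authors deposited TPM per gene and library in 2 tables, 24 injured libraries and 6 libraries of control and WT D1 muscle, with group means that were not used. No column of another sample was present. The submitters' processing notes name mm10, and the aligner and counting tool are not given in the sources used here. Strand use was not stated, so reads of overlapping or antisense genes may be shared. Libraries came from a SMARTER kit.

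Genes with at least 1 TPM in at least 3 libraries of a table were tested (15718 and 13041 genes). On log2(TPM + 1), limma 3.58.1 (R 4.3.3) was fitted with group means and a variance trend, and p-values were adjusted by Benjamini-Hochberg over all genes tested, with calls under 0.05. A fold on this scale understates changes of low genes. The fit was tested on simulated data. Tests stayed within a table. Permutation tests were exact and two-sided (numpy 2.4.6). Gene positions were compared with GENCODE on GRCm38, the assembly of mm10.

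The members and gene lists were chosen with earlier results of these data known, and some lists share genes. All 8 members were named, with the 3 genes most like each, and in the lists those called or the 2 with the lowest p, except for a gene that is not reported here. Alternatives were another pseudocount (0.1), no filter or 5 TPM, median-of-ratios scaling, quantile normalization, library quality weights, a replicate block, fits of the compared groups alone and each library left out. The fit of relative values over all genes was added after seeing the data.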

Additional observations from a re-analysis of the deposited data

How the results depend on the processing

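The counts of members called between KO and WT were 0 in every fit listed in the processing account, except for 1 on D7 with quality weights. Over 84 differences of 7 tested members in 12 comparisons, the sign changed in 17 with median-of-ratios scaling, 14 with quantile normalization and 9 with quality weights, in 0 with another pseudocount, no filter or the replicate block, and in 28 when some library was left out. It changed in 0 of the 72 differences that could be fitted at 5 TPM and in 0 of the 70 fitted on the compared groups alone. Of the 10 calls, 1 (Cbr2 on D1 against control) changed sign, under median-of-ratios scaling. Members called in WT from D1 to D4 were 1 at 5 TPM and 1 in the groups alone, and 1 to 2 with a library left out. In WT from D4 to D7 they were 0 with both scalings and in the groups alone, 7 with quality weights, and 0 to 1 with a library left out. In WT from D7 to D14 they were 2 with a pseudocount of 0.1, at 5 TPM and in the groups alone, 0 with no filter and both scalings, 4 with quality weights, and 0 to 3 with a library left out. In KO from D1 to D4 they were 2 with both scalings, 0 with no filter, quality weights and the groups alone, and 0 to 1 with a library left out. In KO from D4 to D7 they were 0 to 1 with a library left out, and from D7 to D14 4 with quality weights. On D1 against control they were 2 with both scalings. In that comparison Cd163 was -0.15 and -0.23, Timd4 -0.33 and -0.47, under those scalings in the order named, and Cbr2 -0.20 under the first. With a library left out, Timd4 there ranged from -0.085 to 0.22, and the relative level of F13a1 on D14 from -0.062 to 0.10. Same-numbered WT and KO libraries deviated together at r from -0.40 to 0.39 over 12 pairs, so the numbers do not pair the mice. The replicate block left the counts of members called in the injured table as they were, and took the call of Cbr2 on D1 against control (adjusted p = 0.0509, 0.58). Of all genes, those called in WT from D1 to D4 went from 3120 to 1163 in the groups alone, those from D4 to D7 from 1941 to 10595 with quality weights and 908 in the groups alone, and those from D7 to D14 from 5000 to 2220 and 2106 with the scalings, 9503 with quality weights and 7940 in the groups alone. In KO from D1 to D4 they went from 3049 to 52 in the groups alone, and from D7 to D14 from 88 to 431 and 415 with the scalings, 7861 with quality weights, 47 with no filter and 7 in the groups alone. In KO from D4 to D7 they went from 0 to 278 with quality weights, and between KO and WT on D7 from 0 to 533.

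TPM carries no depth, so no detection limit is given for Vsig4 or Timd4, and 3 libraries a group allow no exact p under 0.1 on a day.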

Other observations

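Each WT D1 library was present in the table of injured muscle and in that of control muscle. About 91% of values at 1 TPM or more differed by no more than 10% between tables, and Folr2, Mrc1, Timd4, F13a1, Cbr2 and Vsig4 differed by at most 0.559%. Lyve1 was 14.5%, 21.7% and 16.7% higher in the table with the control libraries (18.12, 13.1 and 22.17 TPM) than in the table of injured muscle (15.82, 10.76 and 18.99 TPM). Cd163 differed by -14.2%, -5.38% and 3.25%. The gene models used for each table were not given in the sources used here, and a level of Lyve1 set across the tables carries this difference.

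Vsig4 was listed from 0 to 1.06 TPM in the injured libraries and at 0.03, 0.06 and 0.23 TPM in control muscle, and other genes of resident macrophages in other organs were mixed. Clec4f, a Kupffer cell lectin, was listed at 0 in every injured library, and Marco did not exceed 0.81 TPM. Cd5l was at 3.24 to 11.5 TPM in WT and 0.25 to 7.32 TPM in KO on D4.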
